A study of Ananas comosus with 48 samples.

Results

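The small RNA of pineapple (Ananas comosus) shoot apices was compared between ethephon-treated and water-treated plants 5 days after treatment. All libraries labelled ethephon at day 5 or water at day 5 were taken, which gave 6 of the 48 libraries in the series, 3 for each treatment. The field-grown plants were of the cultivar 'MD1' (PRI 73-50). Controls had 10 ml of water injected into the centre of the plant, and treated plants 50 mg of ethephon in the same volume. Ethephon breaks down in the plant and releases ethylene, a plant hormone, and it is applied in the field to force flowering. Each library came from 3 pooled apices, and the leaf primordia of the excised tip were part of the tissue. The other 42 libraries came from the same 2 treatments at 7 other samplings, from 6 h to day 8, and entered the model only for the estimate of the spread and for the comparison of day 5 with the other days.

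Mature plant microRNAs (miRs) are short RNAs cut in the nucleus from a hairpin-shaped precursor by a DICER-LIKE enzyme. One strand, the guide, is loaded into an ARGONAUTE protein and directs cleavage or translational arrest of messenger RNAs with a nearly complementary site, while the opposite strand is usually degraded. The suffixes 5p and 3p give the arm of the hairpin from which a strand comes. In shoot apices, miRs are known for setting the levels of auxin response factors (miR160), of class III HD-ZIP factors that specify the meristem and the upper leaf face (miR166), of GRAS-domain HAIRY MERISTEM factors (miR171), and of the SPL and AP2-like factors that time the change to flowering (miR156 and miR172).

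At day 5, 7 of the 57 miRs with enough counts were differentially expressed (DE), 3 up-regulated and 4 down-regulated in ethephon. The strongest rise was that of miR530a-3p, and miR171c-5p and miR166d-5p also rose. Both tested 5p sequences of the auxin-related miR160 family fell, together with miR168b-3p and the GRAS-targeting miR171f-3p. The DE share was 12.3% of the miRs tested, 5.26% up and 7.02% down. The calls came from the quasi-likelihood test of edgeR, with p adjusted by Benjamini-Hochberg over all 57 and a limit of 0.05. Without replicate 1 of ethephon, 0 of the 57 miRs were DE, 11 had an unadjusted p under 0.05, and the adjusted p of the 7 miRs lay between 0.0668 and 0.157. None of the 7 changed direction. Without that library the log2 changes were 1.17 for miR530a-3p, 1.99 for miR171c-5p, 0.93 for miR166d-5p, -0.84 for miR168b-3p, -0.57 for miR160a-5p, -0.78 for miR160d-5p and -0.87 for miR171f-3p. That fit had 2 ethephon libraries at day 5 in place of 3. Fits without replicate 2 or without replicate 3 of ethephon also had 2. In these, 5 and 6 miRs were DE, of which 4 in each were among the 7.

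The 7 DE sequences are shown as listed in the deposited table, 5′ to 3′, with bases 2 to 8 in capitals. These bases are called the seed here and are marked only to compare the sequences. The first 3 were higher in ethephon and the last 4 lower.
miR530a-3p: aGGUGCAGggacagaugcagc
miR171c-5p: uGUUGGUUcgacucacucagg
miR166d-5p: gGAAUGUUgucuggcucgagg
miR168b-3p: cCCGCCUUgcaccaacugaau
miR160a-5p: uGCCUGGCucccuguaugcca
miR160d-5p: uGCCUGGCucccugaaugcca
miR171f-3p: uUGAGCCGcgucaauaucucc

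All 7 were 21 bases long, as were 47 of the 57 tested sequences. Only miR160a-5p and miR160d-5p shared a seed, and they differed by 1 base, U15A counted from the 5′ end with miR160a-5p first. A sequence encoded by several hairpins is listed once and is given here by its first name. The miR160a-5p sequence therefore also stands for miR160b-5p and miR160c-5p, and miR160d-5p stands for miR160e-5p and miR160f-5p. Likewise, miR530a-3p stands for miR530b-3p, and miR166d-5p for miR166e-5p, while the other DE sequences had a single name. Of the 4 down-regulated sequences, 3 began with U, as did 35 of the 57 tested.

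The counts behind these values were uneven. Listed miRs took 59429, 62246 and 73294 counts in the water libraries and 77093, 18581 and 48540 in the ethephon libraries. Replicate 2 of ethephon was the shallowest of all 48 libraries, and its share of tags in listed miRs was 0.182% against 0.382% to 0.571% in the other 5 libraries. In it, 3 counts, the smallest number read here as a level, were worth 140 CPM (the share of the counts in listed miRs, as the cpm function of edgeR scales it), against 41.2 to 63.6 CPM elsewhere. The trimmed mean of M-values (TMM) factors used for scaling ran from 0.874 to 0.992 in water and from 0.744 to 1.15 in ethephon. For the totals, the tags, their miR share, the number of miRs detected and the factors, the two-sided exact permutation p between treatments was 0.3 or above, where the smallest possible p is 0.10 for 3 against 3. Levels are given in CPM after TMM scaling, log2 changes are ethephon over water, and a change of one miR is relative to the other listed miRs.

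The 10 most abundant miRs held 95.3% of the day 5 counts, and only one of them, miR166d-5p, was DE. The most abundant, miR159c-3p, took 43.1% of the counts, and the same 21 bases are also listed as miR319a-3p and miR319d-3p. In Arabidopsis this sequence is known as miR319, which targets TCP factors of leaf growth. Its level was 454332 ± 77657 CPM in water and 456933 ± 165740 in ethephon (SD, n = 3 each), a log2 change of 0.01 with a standard error (SE) of 0.29. The next, miR159j-3p, which belongs to a family that targets GAMYB factors, took 24.2% of the counts and had a log2 change of 0.08 (SE 0.24). Intermediate levels were held by miR166b-3p (9.29% of counts), miR162a-3p (7.79%), miR159a-3p (4.50%), miR166a-3p (2.04%) and miR159b-3p (1.56%), whose log2 changes lay between -0.11 and 0.23. Over all 57 miRs the median log2 change was -0.08, with 26 positive and 31 negative values.

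**Figure D1:**
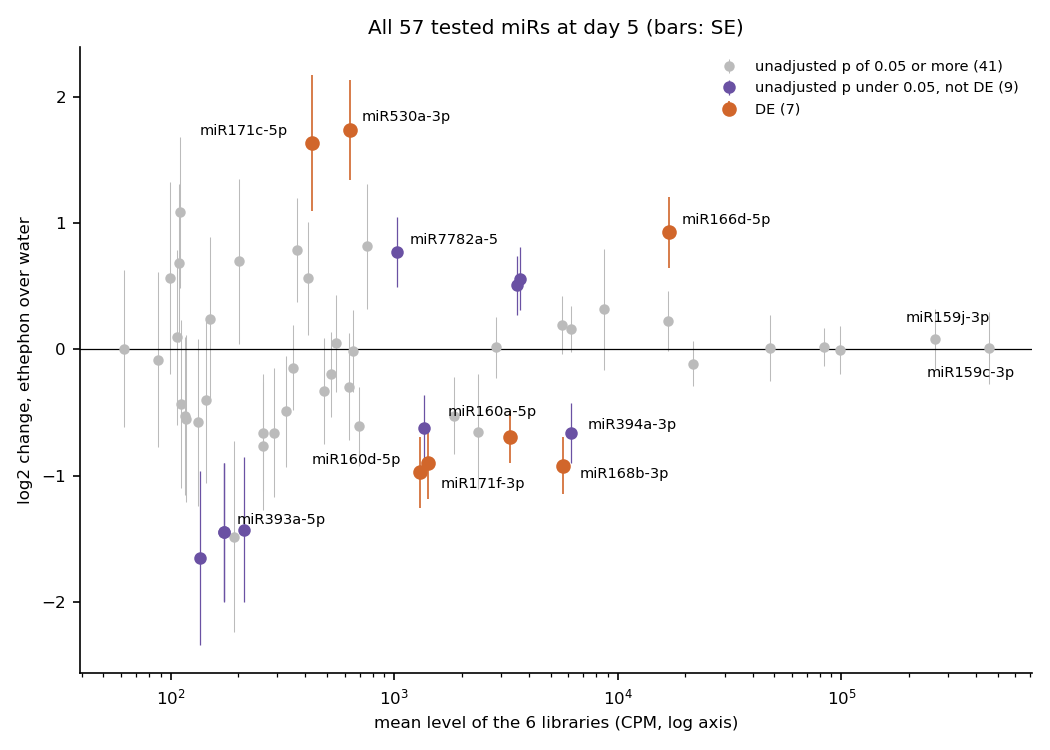
Log2 change, ethephon over water at day 5, of each tested miR (vertical axis, bars are the SE) against its mean level in the 6 libraries (horizontal axis, CPM on a log scale). The 7 DE miRs (orange) lie at middle levels except miR166d-5p, which is among the most abundant at 16970 CPM. The miRs at the far right lie near 0.

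The largest rise among the DE miRs was that of miR530a-3p. The family miR530 is found in rice and other plants, and its usual guide is the 5p strand. The 3p strand had 14, 21 and 19 counts in water and 85, 18 and 27 in ethephon. These made 239.4, 386 and 261 CPM in water and 1483, 840.2 and 573 CPM in ethephon. Every ethephon library was above every water library, and replicate 1 was the highest by far. The log2 change was 1.74 (SE 0.40, adjusted p = 0.00398). Without replicate 1 of ethephon it was 1.17 (SE 0.46, adjusted p = 0.157).

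The 5p strand, miR530a-5p, was the far more abundant of the pair and did not pass the test. It stood at 9559, 8124 and 5458 CPM in water and 5443, 14984 and 8655 CPM in ethephon, so that the groups overlapped (log2 change 0.32, SE 0.48, adjusted p = 0.706). Replicate 1 of ethephon, the library with the highest 3p level, had a 5p level close to that of replicate 3 of water, the lowest of its group. Within each library, the log2 ratio of 3p to 5p counts was -5.27, -4.36 and -4.35 in water and -1.87, -4.12 and -3.89 in ethephon. The ratio was higher in all 3 ethephon libraries, but in replicates 2 and 3 by little.

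From the same family as the AGO1 regulator miR168, the 3p sequence miR168b-3p fell. In Arabidopsis the miR168 guide is the 5p strand, which targets ARGONAUTE1 and so adjusts the machinery that all miRs use. The 3p strand stood at 8019.9, 6249.6 and 7959.5 CPM in water and at 3175, 3641 and 4900.4 CPM in ethephon. The lowest water library was above the highest ethephon library, and the log2 change was -0.92 (SE 0.22, adjusted p = 0.00494). In contrast, the guide miR168a-5p held 6344, 4853 and 6296 CPM in water and 6943, 5228 and 7255 in ethephon, which overlapped (log2 change 0.16, SE 0.18, adjusted p = 0.653).

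The 2 strands of miR168 thus had unlike log2 changes, and this difference was not tested. The log2 ratio of miR168b-3p to miR168a-5p was nearly constant in water, at 0.34, 0.36 and 0.34, and lay at -1.13, -0.52 and -0.57 in ethephon. The 3p strand outnumbered the 5p strand in each of the 3 water libraries and was the rarer in each of the 3 ethephon libraries. A ratio taken within a library does not depend on how libraries are scaled. The difference of the means was -1.08, larger than the SD of 0.02 in water and 0.34 in ethephon (n = 3 each). The listed miR168a-3p, which differs from miR168b-3p by G4A, had too few counts to be tested, and the 5p sequence is listed for both hairpins.

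Both 5p sequences of miR160, which guide the cleavage of mRNAs of auxin response factors, were down-regulated. For miR160a-5p, the water libraries held 4514, 3952 and 3739 CPM and the ethephon libraries 1936, 3128 and 2567 CPM. The groups did not overlap, and the log2 change was -0.70 (SE 0.21, adjusted p = 0.0227). For miR160d-5p the values were 1642, 1618 and 1828 CPM in water and 611, 1354 and 764 CPM in ethephon, a log2 change of -0.97 (SE 0.28, adjusted p = 0.0227). The water libraries lay close together, while replicate 2 of ethephon was the highest of its group in both sequences. For miR160d-5p it stood well above the other 2, at a level that rested on 29 counts. Because a read of one sequence differs from the other by a single base, some reads may have been assigned to either, as the number of mismatches allowed in the alignment is not given in the sources used here.

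The opposite strands of miR160 had negative log2 changes but did not pass the test. The counts of miR160a-3p were 25, 15 and 26 in water and 12, 5 and 11 in ethephon (log2 change -0.66, SE 0.51, adjusted p = 0.443). For miR160b-3p they were 20, 11 and 18 in water and 0, 5 and 6 in ethephon (-1.48, SE 0.75, adjusted p = 0.182), and for miR160e-3p they were 5, 10 and 11 against 6, 2 and 4 (-0.55, SE 0.66). The log2 ratio of miR160a-5p to miR160a-3p was 3.37, 3.80 and 3.36 in water and 3.16, 3.62 and 3.40 in ethephon, with overlapping groups. Summed over the family, miR160 stood at 5973 ± 60 CPM in water and 3846 ± 1055 CPM in ethephon (log2 change -0.65, SE 0.18, adjusted p = 0.0231 over 23 families).

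A rise was measured for miR166d-5p, one of the strands opposite to the miR166 guides. The guides are 3p strands, which target class III HD-ZIP mRNAs. The 5p sequence had 12278, 9999.4 and 12785 CPM in water and 20725, 26561 and 19474 CPM in ethephon. All ethephon libraries were higher, and replicate 2 the highest (log2 change 0.93, SE 0.28, adjusted p = 0.0227). With 544 to 1188 counts per library it was the most deeply counted of the DE miRs.

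The miR166 guides showed no such difference. The most abundant, miR166b-3p, which is listed also for the hairpins of miR166d and miR166e, held 107285, 82899 and 105027 CPM in water and 108860, 73007 and 112030 CPM in ethephon (log2 change -0.01, SE 0.19, adjusted p = 0.994). The values were -0.11 (SE 0.18) for miR166a-3p and 0.01 (SE 0.24) for miR166c-3p. Another 5p sequence, miR166a-5p, had 4 to 15 counts per library and a log2 change of 0.70 (SE 0.65). The log2 ratio of miR166d-5p to miR166b-3p was -3.13, -3.05 and -3.04 in water and -2.39, -1.46 and -2.52 in ethephon, so that the 5p share was higher in each ethephon library.

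Within the miR171 family, 1 sequence fell and 1 rose. The guide miR171f-3p targets GRAS-domain factors of the HAIRY MERISTEM group, which keep shoot meristem cells undifferentiated. It stood at 2035, 1379 and 2117 CPM in water and at 889.7, 1027 and 1061 CPM in ethephon (log2 change -0.90, SE 0.29, adjusted p = 0.0283). Ethephon libraries varied little, and replicate 2 was the lowest of the water libraries. Its opposite strand, miR171f-5p, overlapped between the groups (-0.02, SE 0.32), and the log2 ratio of 3p to 5p was 1.46, 1.62 and 1.45 in water and 1.07, 0.54 and 0.32 in ethephon.

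Among the tested miRs, 3 others carried the seed of miR171f-3p. The sequences are given to show that the seed is shared and that the ends vary.
miR171d-3p: uUGAGCCGcgccaauaucacu
miR171a-3p: uUGAGCCGcgccaauaucucu
miR171b-3p: uUGAGCCGcgccaauaucacg
The differences of miR171f-3p from miR171a-3p were U11C and C21U, counted from the 5′ end with miR171f-3p first. None of the 3 was DE. The log2 changes were -0.61 (SE 0.31, adjusted p = 0.182) for miR171d-3p, -0.49 (SE 0.44) for miR171a-3p and -0.15 (SE 0.34) for miR171b-3p, and each overlapped between the groups. Also, miR171a-5p had a log2 change of -0.53 (SE 0.62).

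In contrast, miR171c-5p rose. It had 10, 9 and 18 counts in water and 17, 22 and 31 in ethephon. As CPM these were 171, 165 and 247 in water and 297, 1027 and 658 in ethephon (log2 change 1.63, SE 0.54, adjusted p = 0.0334). The rise in the shallow replicate 2 rested on 22 counts, and this was the DE miR with the highest adjusted p. Its 3p partner, miR171c-3p, had 4, 4 and 5 counts in water and 8, 3 and 8 in ethephon (log2 change 1.08, SE 0.60, adjusted p = 0.218). The 3p seed of this hairpin is shifted relative to that of miR171f-3p and shared with miR171g-3p, which was at 0 to 7 counts per library (log2 change 0.00, SE 0.62).

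**Figure D2:**
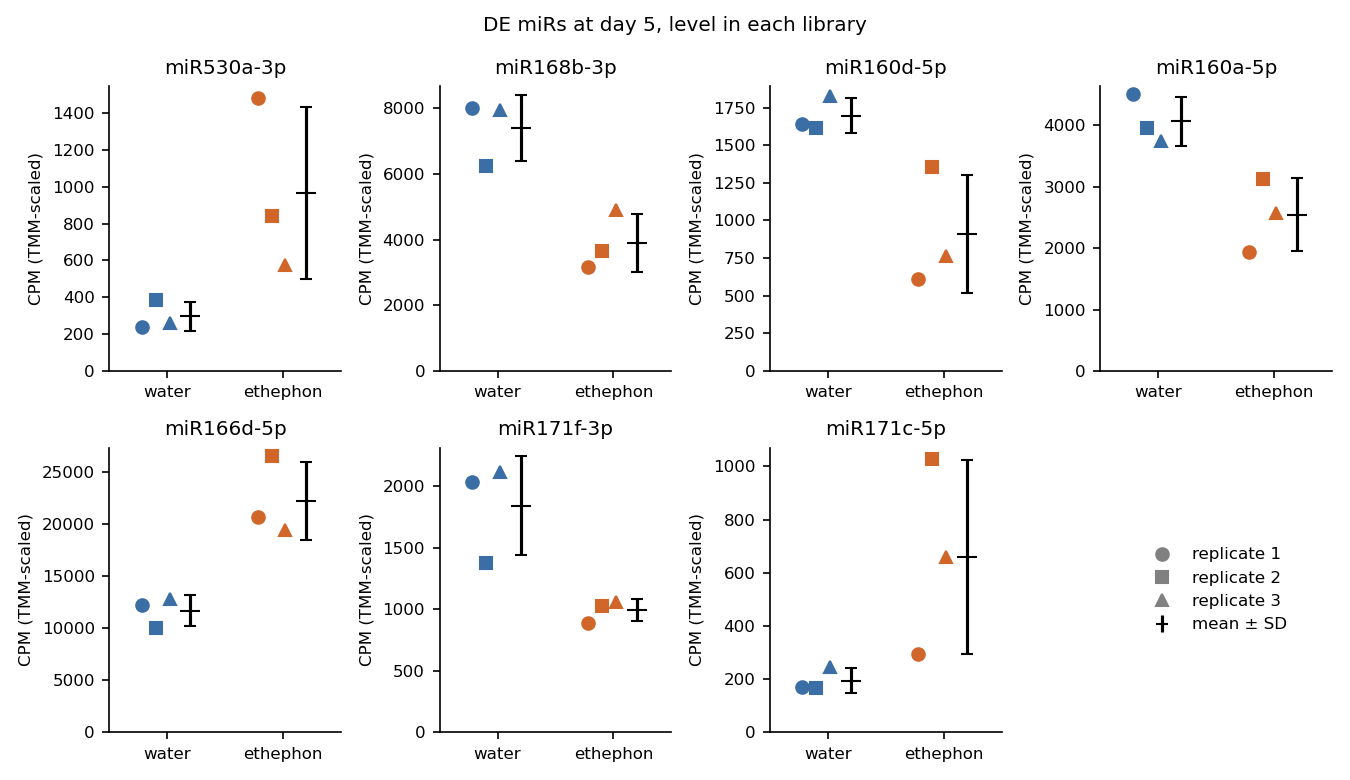
Level of the 7 DE miRs in each library at day 5 (vertical axes, CPM from 0; symbols are replicates 1 to 3; black bars are the mean ± SD of 3 libraries). In each panel the water libraries (blue) and ethephon libraries (orange) do not overlap, and the spread in ethephon is wide for miR530a-3p and miR171c-5p.

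Groups that did not overlap were seen for all 7 DE miRs. Over the 57 miRs, all ethephon libraries lay above all water libraries in 8 (14%) and below in 12 (21.1%). The arm ratios were separated between treatments for miR530a, miR168, miR166d and miR171f, with differences of 1.37, -1.08, 0.95 and -0.87 on the log2 scale. They overlapped for miR160a (-0.12), miR160d (-0.57) and miR171c (0.52). For miR160d the partner was miR160e-3p, and for miR168b it was miR168a-5p, chosen because these listed sequences share a hairpin name. With 3 libraries against 3 these ratios have a smallest exact p of 0.10, and no test was applied. Ratios were taken only for hairpins in which an arm was DE, so their separation is not independent of the calls.

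**Figure D3:**
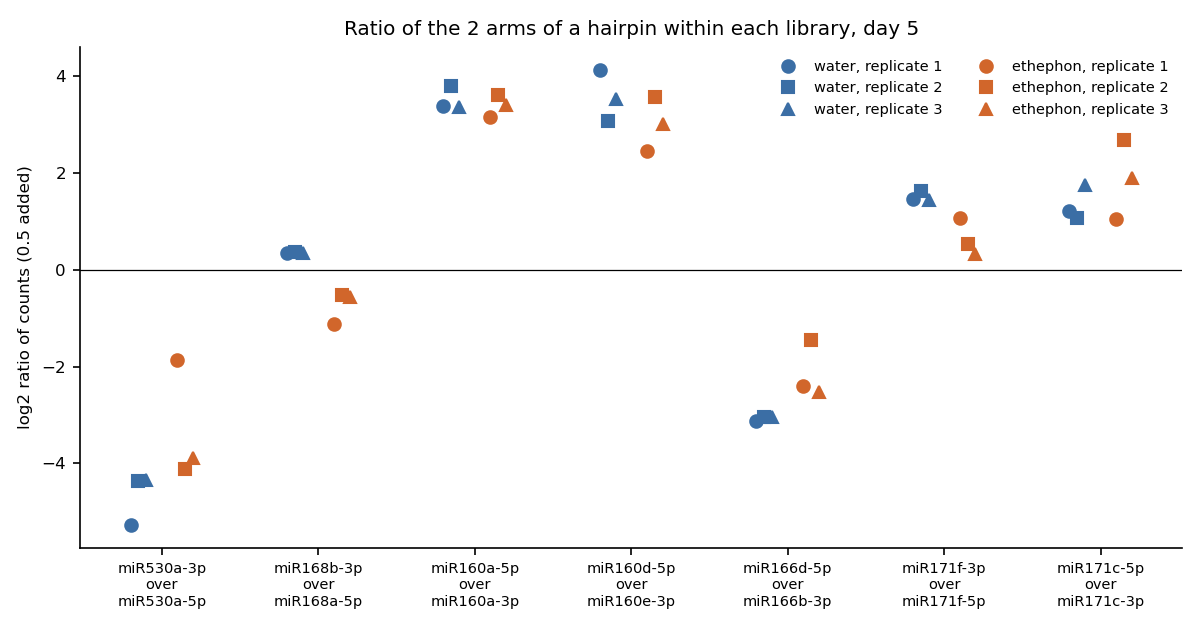
Log2 ratio of the counts of the 2 arms of a hairpin in each library at day 5 (vertical axis, 0.5 added to each count), for the DE miR over its partner. For miR168 the water libraries lie above 0 and the ethephon libraries below, and the ratios of miR160a, miR160d and miR171c overlap.

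A further 9 miRs had an unadjusted p under 0.05 without being DE, so that 16 of 57 (28.1%) were under that limit, 6 higher and 10 lower in ethephon. Nearest to the threshold was miR394a-3p (adjusted p = 0.0552). The listed sequence is the one known in Arabidopsis as the miR394 guide, which targets the F-box gene LCR in the shoot meristem.
miR394a-3p: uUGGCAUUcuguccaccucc
Its level was 8276, 7609.8 and 6901 CPM in water and 4117, 3781 and 6428 CPM in ethephon, with replicate 3 of ethephon near the lowest water library (log2 change -0.66, SE 0.24).

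Of the miR393 family, which targets the TIR1/AFB auxin receptors, 2 sequences were tested. They are printed because one is contained in the other.
miR393a-5p: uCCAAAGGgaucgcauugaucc
miR393b-5p: uCCAAAGGgaucgcauugauc
Their counts were equal in all 6 libraries, at 14, 14 and 18 in water and 3, 3 and 5 in ethephon, and equal in 47 of the 48 libraries of the series. The 2 names are thus not independent measurements, and the sum over the family counts it double. The log2 change was -1.45 (SE 0.55, adjusted p = 0.0583). In ethephon, replicates 1 and 2 were at the 3 counts that set the lowest level read here.

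The 24-base sequence miR7782a-5, also listed as miR1873a-3, was higher in ethephon.
miR7782a-5: uCCUGCUCugauaccaugugaaac
Water libraries had 1094, 515 and 674 CPM and ethephon libraries 1308, 1214 and 1358 CPM (log2 change 0.77, SE 0.28, adjusted p = 0.0553). As a family, with miR7782a-3 added, miR7782 passed the test over families (log2 change 0.87, SE 0.27, adjusted p = 0.0319). It had 763 ± 254 CPM in water and 1393 ± 251 CPM in ethephon (SD, n = 3). With miR160 these were the 2 DE families of 23 (8.70%), while miR164, miR393, miR1863 and miR394 had an unadjusted p under 0.05 only.

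The remaining 5 were of 4 families. Lower values were found for miR827a-5p, of a family that acts in phosphate homeostasis, with 16, 16 and 28 counts in water and 6, 1 and 8 in ethephon (log2 change -1.43, SE 0.57, adjusted p = 0.0781). The 1 count in replicate 2 of ethephon was under the 3 counts that set the lowest level read here. For miR164c-3p, counts were 10, 10 and 15 in water and 1, 4 and 2 in ethephon, and the CPM overlapped, as the 4 counts of the shallow replicate 2 were worth 187 CPM (-1.65, SE 0.69, adjusted p = 0.0872). Its counts of 1 and 2 in replicates 1 and 3 of ethephon were likewise under the lowest level read. Its guide family member miR164a-5p, which targets NAC factors of organ boundaries, was at 2942 ± 355 CPM in water and 4335 ± 735 CPM in ethephon (SD, n = 3; log2 change 0.56, SE 0.25, adjusted p = 0.117). Another 24-base sequence, miR1863a-3, stood at 2905 ± 129.6 CPM in water and 4154 ± 692 CPM in ethephon (0.51, SE 0.23, adjusted p = 0.122).

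The last of these was miR172a-3p, the guide that represses AP2-like factors and promotes flowering in Arabidopsis and maize. Water libraries had 1676, 1930.02 and 1319.7 CPM and ethephon libraries 1134, 1027 and 1018 CPM. All ethephon libraries were lower (log2 change -0.62, SE 0.26), but the adjusted p was 0.0872. A second guide, miR172b-3p, had 3 to 7 counts per library (log2 change -0.08, SE 0.69).

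The other age-related miRs were nearly undetected in these apices at day 5. Counts of miR156a-5p, a guide that represses SPL factors, were 1, 0 and 1 in water and 4, 1 and 1 in ethephon. For miR156a-3p they were 2, 3 and 0 against 3, 0 and 1, and miR156c-5p had 3, 0 and 0 against 0, 0 and 1. A single count of miR156b-5p was found in water, and miR156b-3p, miR156f-3p and miR172d-5p were at 0 in all 6 libraries. Similarly, miR172a-5p had 2, 2 and 3 against 1, 1 and 1, and miR172c-5p had 0, 2 and 4 against 1, 4 and 1. The counts of miR529a-3p were 0, 1 and 0 in water and 5, 0 and 0 in ethephon, those of miR529a-5p were 0 in water and 2, 0 and 0 in ethephon, and those of miR535a-3p were 2, 0 and 1 against 0, 0 and 2. The highest was miR535a-5p, with 5, 5 and 7 in water and 12, 0 and 1 in ethephon. No difference was detectable at these depths. In all, 43 sequences under the filter had a count at day 5, with 147 counts in water and 106 in ethephon and never more than 12 in a library.

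The miRs were also grouped by the known roles of their families, to be read beside the 57 tested miRs, of which 12.3% were DE (5.26% higher, 7.02% lower), 26 had positive and 31 negative log2 changes, and the median was -0.08. With groups this small, 1 member more or less moves a share widely. The auxin miRs (miR160, miR167, miR390, miR393) had 2 of 10 tested members DE, both lower, and 9 of 10 log2 changes were negative with a median of -0.68, where miR393a-5p and miR393b-5p, with equal counts, stand for 2 of the 10. The exception was miR167a-5p (0.19, SE 0.23), which targets other auxin response factors than miR160. Boundary, meristem and polarity miRs (miR164, miR165, miR166, miR171, miR394) had 2 of 19 DE higher and 1 lower, with a median of -0.01. Both directions together were near the share of all tested miRs, while the share DE higher was above the 5.26% of all. Of the small RNA machinery miRs (miR162, miR168, miR403), 1 of 3 was DE, miR168b-3p. All 6 tested TCP and GRF miRs (miR319, miR396) had negative log2 changes with a median of -0.48, but none was DE. This list leaves out miR159c-3p, which is also listed as miR319a-3p and had a log2 change of 0.01 (SE 0.29). The list set up for monocot or lineage-limited miRs, among them miR528, miR530, miR1863 and miR7782, had 8 positive changes of 8 with a median of 0.62. Its 1 DE member of the 8, a share near that of all tested miRs, was miR530a-3p, whose family is found in rice and other plants. None of the 5 MYB miRs, among which miR159c-3p was placed by its first name, 3 phosphate and sulfate miRs, 3 copper miRs or 2 age and phase miRs was DE, with medians of 0.08, -0.65, 0.56 and -0.35. No test was made of these lists. The members of a list share hairpins, sequences or reads, and the counts describe these libraries.

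To find whether day 5 stood apart in the series, its change was set against the mean change of the other 7 samplings, which had their own water libraries. The adjusted p was under 0.05 for 0 of the 57 miRs (0%) in edgeR and also for 0 in DESeq2, and 4 had an unadjusted p under 0.05 in edgeR. Compared with its neighbours, day 5 differed in 0 miRs from day 4 and in 0 from day 6, with 3 and 5 under an unadjusted p of 0.05. The 4 were miR530a-3p, both names of miR393 and miR7782a-5.

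For miR530a-3p, the log2 change was -0.55 at 6 h, 0.30, 0.56 and 0.32 from day 1 to day 3, 1.24 at day 4, 1.74 at day 5, 0.70 at day 6 and 0.02 at day 8. Day 5 was the highest value, with day 4 the other sampling at which the miR was DE (adjusted p = 0.0305). Day 5 exceeded the mean of the others by 1.37 (SE 0.42, adjusted p = 0.124). Without replicate 3 of ethephon at day 5 this difference was 1.66 (SE 0.44, adjusted p = 0.0270), the only setting in which any miR was DE in this comparison. The water level of day 5, 296 CPM, was the lowest of the 8 samplings (376 to 521 CPM in the others), and the ethephon level, 965 CPM, was the highest (352 to 893).

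For miR393a-5p the water level at day 5 was the highest of the series, a ranking that was not tested. It was 248 ± 9.0 CPM, against 64.7 to 155 CPM at the other samplings, whereas the ethephon level of 99.5 ± 44.2 CPM was within the 59.9 to 198 CPM of the others. Its log2 change was -1.45 at day 5 and 0.18 (SE 0.21) in the mean of the others, a difference of -1.63 (SE 0.59, adjusted p = 0.160). The change of miR7782a-5 exceeded that of the other samplings by 0.74 (SE 0.30, adjusted p = 0.249), and only day 8 had a larger one (1.05, adjusted p = 0.00593).

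Among the other DE miRs, some had the same direction at all 8 samplings. The changes of miR160a-5p were negative at all 8 samplings, and that of day 5 was only the seventh in size, as the mean of the others was -0.93 (SE 0.08). For miR160d-5p the mean of the others was -0.98 (SE 0.10), close to the -0.97 of day 5. In miR168b-3p all 8 changes were negative with day 5 the largest, against a mean of -0.56 (SE 0.08) in the others. Its water level of 7410 CPM at day 5 was the highest of the series (3977 to 6452 CPM at the others), and so was its ethephon level (3906 against 2533 to 3871 CPM).

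For miR166d-5p the change was 1.15 at day 2, 0.86 at day 4, 0.93 at day 5 and 0.86 at day 8, and it was DE at each of these, while it was -0.18 at 6 h and 0.01 at day 3. The changes of miR171f-3p were -0.35 at 6 h, -0.34 at day 1, 0.23 at day 2, -0.86 at day 3, -0.69 at day 4, -0.90 at day 5, -0.77 at day 6 and -0.12 at day 8, and it was DE at days 3 and 5. Those of miR171c-5p were positive throughout and DE only at day 5, which does not show that day 5 differed, since the difference from the mean of the others was 0.99 (SE 0.57, adjusted p = 0.515). The abundant miR159j-3p had a negative change at the other 7 samplings, from -0.85 to -0.17, and 0.08 at day 5 (difference 0.51, SE 0.25, adjusted p = 0.486).

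**Figure D4:**
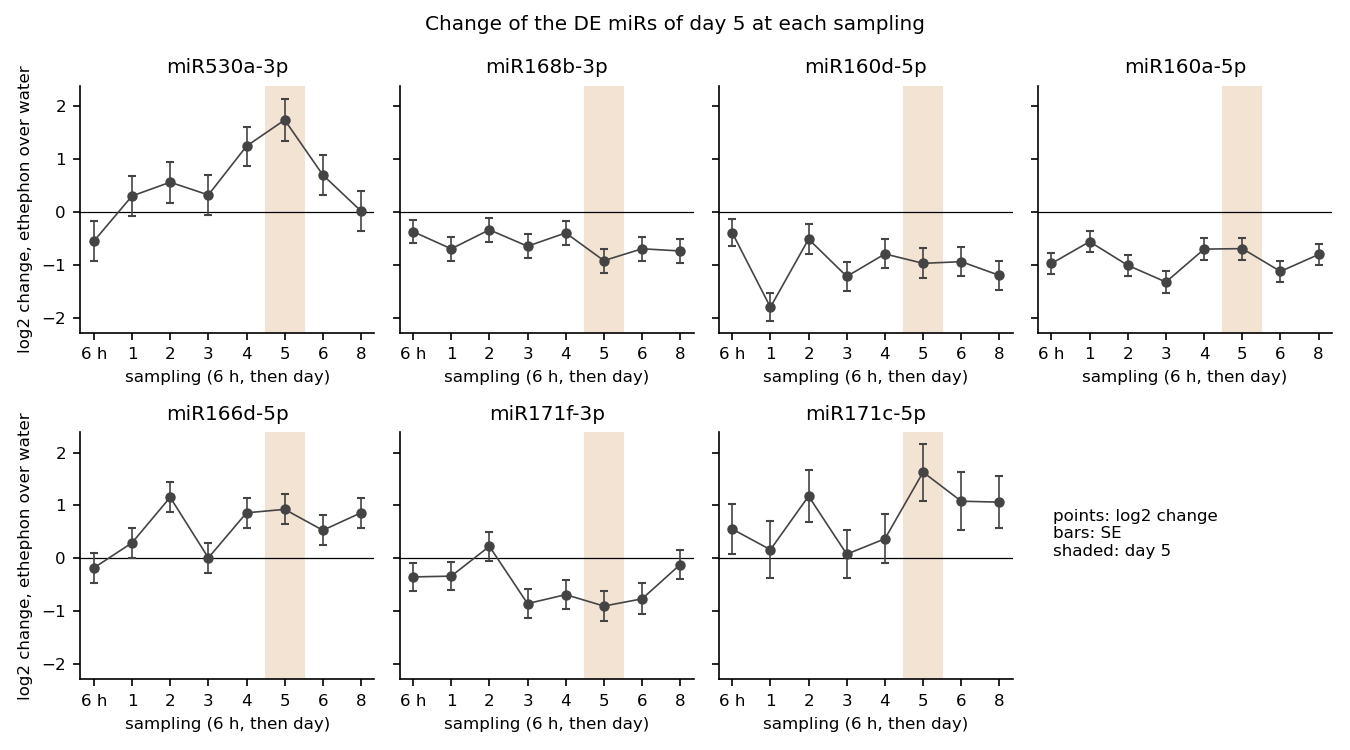
Log2 change, ethephon over water, of the DE miRs of day 5 at each of the 8 samplings (vertical axes, bars are the SE; day 5 is shaded). The values of miR530a-3p climb to 1.74 at day 5 and return to 0.02 at day 8, and those of miR160a-5p, miR160d-5p and miR168b-3p are below 0 throughout.

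The calls depended on the total to which a library was scaled. Set against all sequencing tags instead of listed miRs, the median log2 change over the 57 miRs was -0.48, and 14 miRs were DE, 1 higher and 13 lower, against 3 and 4 on the scale of listed miRs. On that scale 5 of the 7 miRs remained DE, namely miR530a-3p and the 4 that fell, while miR166d-5p and miR171c-5p kept positive values of 0.45 and 1.12 that did not pass. A value on this scale rises and falls with the share of tags in listed miRs, which was 0.411%, 0.511% and 0.501% in water and 0.571%, 0.182% and 0.382% in ethephon. Without any composition factor, miR530a-3p, miR168b-3p and miR166d-5p were the DE miRs.

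**Figure D5:**
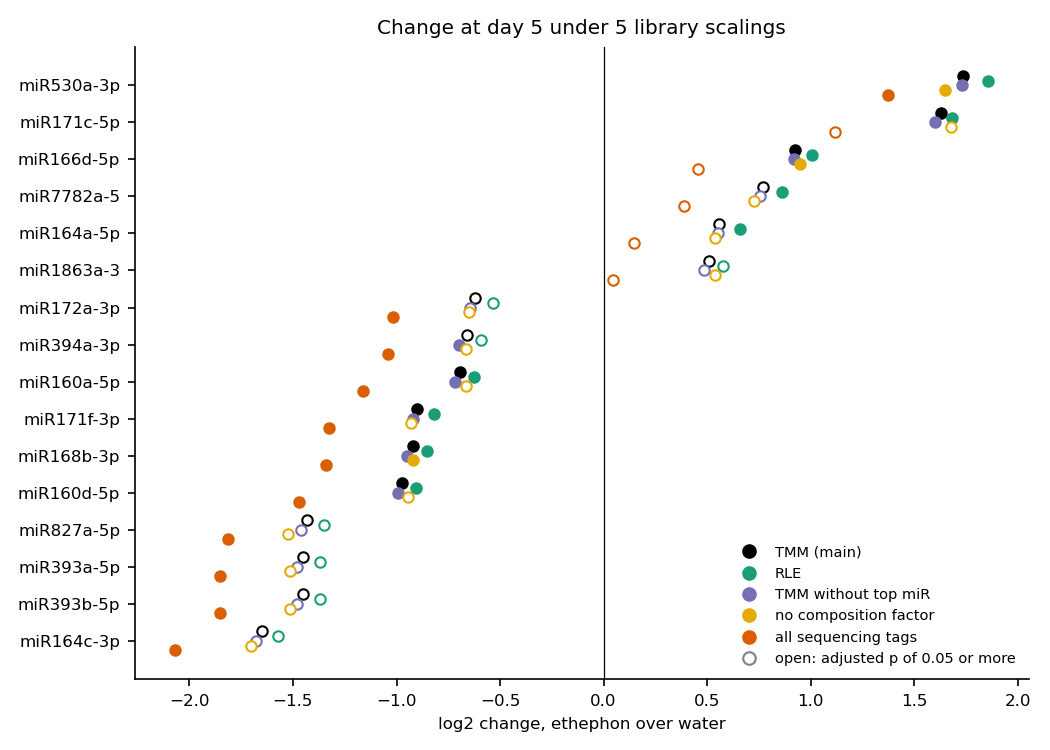
Log2 change at day 5 (horizontal axis) of the 16 miRs with an unadjusted p under 0.05, under 5 ways of scaling the libraries (colours). Filled points have an adjusted p under 0.05. With all sequencing tags as the total, the points move to lower values for each miR, and miR530a-3p and miR168b-3p stay filled under all 5.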

How the data were processed

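Small RNA libraries (NEBNext, HiSeq4000) of the apex were analysed from the deposited table of 190 mature sequences. The authors removed adapters, collapsed identical reads and aligned them to mature miRs of miRBase (aligner, mismatch setting and genome positions: not given in the sources used here). The deposited values are raw counts and, beside them, a score, the authors' reads per 10000000 sequencing tags rounded to whole numbers, from which the tags of each library were recovered using scores of at least 100. All 48 libraries were mapped by title.

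Counts were fitted in edgeR 4.0.16 (R 4.3.3) with 16 group means, filterByExpr (minimum count 10, minimum total 15; 57 of 127 sequences with a count kept), TMM factors and the quasi-likelihood test (common biological coefficient of variation 0.246). SE is the absolute log2 change over the square root of F. Families are sums over members (23 tested). DESeq2 1.42.0 and limma-voom 3.58.1 were alternatives, as were other scalings, no filter, the 6 libraries alone, a replicate block and leaving out replicates. The code was tested on simulated data. Arm ratios used counts plus 0.5. No 2 libraries were identical. The plot had 3 replications, but no source ties a library's replicate number to one of them. The p-values therefore measure only the spread between these samples, estimated within the 16 groups of all 48 libraries.

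Named miRs are the DE miRs, those with an unadjusted p under 0.05, all tested members of a family holding a DE miR, listed members of miR156, miR157, miR172, miR529 and miR535, and the 10 most abundant. The other tested miRs, named with their values in the closing observations and beside the lists (miR167a-5p), lie outside this rule and were chosen after their values were seen. Members, lists and tests were chosen with earlier results of these data known.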

Additional observations from a re-analysis of the deposited data

How the results depend on the processing

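The number of DE miRs, 7 with TMM factors, was 9 with RLE factors, 3 with no composition factor, 14 with all sequencing tags, 8 without the most abundant miR in the factors, 10 with no filter, 11 in DESeq2 (6 higher, 5 lower), 8 in limma-voom, and 4 with the 6 libraries of day 5 alone. Leaving out a replicate gave 0 to 9. It was 0 without replicate 1 of ethephon and also without replicate 1 of every group, 4 without replicate 1 of water and 3 without replicate 3 of water. The number was 5 without replicate 2 of water, 5 without replicate 2 of ethephon and 6 without replicate 3 of ethephon. Without replicate 2 of every group it was 6, and without replicate 3 of every group 9. DE families, 2 in the reported fit, numbered 0 with no composition factor, 6 with all tags, 0 with TMM without the most abundant miR, 1 with no filter, 0 with the 6 libraries alone, and 0 to 4 without a replicate. No miR differed between day 5 and the other samplings in any setting except 1 miR, miR530a-3p, without replicate 3 of ethephon (0 to 1 when a replicate was left out). The same-numbered libraries of day 5 correlated at -0.02, 0.03 and -0.05, and 7 of 24 such pairs of the series were over 0.1. Differently numbered libraries of day 5 correlated at -0.10 to 0.16. So few pairs cannot show whether replicate numbers pair the libraries. The fit with a replicate block had 9 DE miRs, the 7 plus miR394a-3p and miR7782a-5, and 2 families.

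None of the 7 DE miRs reversed in 18 settings. The change of miR530a-3p ran from 1.09 to 2.04 and that of miR168b-3p from -1.34 to -0.72, and each missed the threshold in 2 settings. It was missed in 5 settings by miR160a-5p, 6 by miR160d-5p, 7 by miR171f-3p, 8 by miR166d-5p and 12 by miR171c-5p. Only miRs that were not DE changed sign. With RLE factors the log2 change was 0.083 for miR166b-3p, 0.050 for miR171f-5p and 0.0048 for miR172b-3p. With no composition factor the log2 change was -0.020 for miR159a-3p, -0.048 for miR159c-3p, -0.0039 for miR166c-3p and -0.13 for miR171g-3p. With TMM without the most abundant miR the log2 change was -0.019 for miR159a-3p, -0.011 for miR159c-3p, -0.0064 for miR162a-3p, -0.013 for miR166c-3p and -0.016 for miR171g-3p. With all sequencing tags the log2 change was -0.34 for miR159a-3p, -0.12 for miR159b-3p, -0.31 for miR159c-3p, -0.31 for miR159j-3p, -0.39 for miR162a-3p, -0.37 for miR166c-3p, -0.22 for miR168a-5p, -0.35 for miR171g-3p and -0.23 for miR530a-5p. With no filter the log2 change was -0.094 for miR159a-3p, -0.099 for miR159c-3p, -0.0055 for miR159j-3p, -0.073 for miR162a-3p, -0.083 for miR166c-3p and -0.13 for miR171g-3p. In DESeq2 the log2 change was 0.084 for miR166b-3p, 0.045 for miR171f-5p and 0.027 for miR172b-3p. In limma-voom the log2 change was -0.030 for miR159a-3p, -0.049 for miR159c-3p, -0.33 for miR171g-3p and 0.030 for miR172b-3p. With the 6 libraries alone the log2 change was -0.025 for miR159a-3p, -0.030 for miR159c-3p, -0.0069 for miR166c-3p and -0.0099 for miR171g-3p. With the replicate block the log2 change was -0.037 for miR171g-3p. Leaving out a replicate gave -0.32 to 0.31 for miR159a-3p, -0.092 to 0.47 for miR159b-3p, -0.36 to 0.37 for miR159c-3p, -0.21 to 0.24 for miR159j-3p, -0.21 to 0.097 for miR162a-3p, -0.49 to 0.056 for miR166a-3p, -0.23 to 0.17 for miR166b-3p, -0.34 to 0.17 for miR166c-3p, -0.044 to 0.28 for miR168a-5p, -0.40 to 0.12 for miR171b-3p, -0.34 to 0.36 for miR171f-5p, -0.73 to 0.38 for miR171g-3p, -0.44 to 0.092 for miR172b-3p and -0.13 to 0.79 for miR530a-5p. The cause of these changes was not tested.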

Other observations

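Some families with tested members but no DE miR showed values not described above. The growth-related miR396 family, which targets GRF factors, had negative log2 changes for miR396a-5p (-0.53, SE 0.31), miR396a-3p (-0.77, SE 0.51) and miR396b-5p (-0.58, SE 0.66). Among the sequences first named miR319, the changes were -0.33 (SE 0.42) for miR319b-3p, -0.30 (SE 0.42) for miR319a-5p and -0.43 (SE 0.67) for miR319d-5p. In miR396a-5p all ethephon libraries, at 1221, 1961 and 1421 CPM, were below the water libraries, at 2155, 2390 and 1966 CPM, the nearest pair differing by little (adjusted p = 0.249). The monocot-typical miR528a-5p, which targets mRNAs of copper proteins, had 20, 29 and 54 counts in water and 61, 24 and 34 in ethephon (log2 change 0.81, SE 0.49, adjusted p = 0.276), and miR528c-3p had a change of 0.56 (SE 0.76). The copper-related miR408a-3p stood at -0.40 (SE 0.65).

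The phosphate-related miR827a-3p had 140, 188 and 215 counts in water and 135, 16 and 108 in ethephon, with the shallow replicate 2 far below the others (log2 change -0.65, SE 0.46), and miR399a-3p had 2 to 9 counts per library (0.09, SE 0.69). Both strands of miR390, which starts the production of small RNAs against auxin response factors, had negative values, at -0.20 (SE 0.34) for miR390a-5p and -0.66 (SE 0.46) for miR390a-3p. The rare miR159e-3p was higher in each ethephon library, at 401, 560.2 and 445 CPM against 154, 349 and 289 CPM in water, from 9 to 23 counts per library (0.79, SE 0.41, adjusted p = 0.193). The other members were miR164b-5p (0.56, SE 0.45), miR164a-3p (0.24, SE 0.65), miR7782a-3 (0.68, SE 0.63) and miR1863a-5 (0.05, SE 0.39).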
